A study of Homo sapiens with 288 samples.

Results

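The cells described here were single stem-cell-derived endothelial cells (EC cells) that held transcripts of GDF3, a gene best known from undifferentiated pluripotent cells. They were chosen by GDF3 itself: of the 45 EC cells of the EQ experiment, 38 had at least 10 to the power 5.4 summed counts and at most 31% of their counts in their 50 most abundant genes, and 7 of these 38 had GDF3 at 10 CPM or more, where CPM is a gene's count as a share of the cell's summed counts, scaled to 1000000. The comparison group was the 25 EC cells with GDF3 below 1 CPM, called low cells here, and the 6 cells from 1 to 10 CPM entered neither group. The whole series held 288 libraries.

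The study set unequalized libraries, whose cDNA input varied, beside libraries for which every single cell's cDNA was brought to the same input. All libraries used here were equalized in this way before library preparation. EC cells came from the human embryonic stem cell line H1, kept in E8 medium with BMP4 at 5 ng/ml and Activin A at 25 ng/ml for 2 days and then with VEGF and WNT for 3 days. All EC cells shared that treatment, and trophoblast-like cells (TB cells) from the same line had E7 medium, which is E8 without FGF2, with BMP4 at 50 ng/ml and SB431542, an inhibitor of activin and Nodal type I receptors. Libraries were pooled in equal volume (EQ) or in volumes set by a scaling factor that made depths unequal (EQ-Vary), and the EQ preparation was repeated from the same cDNA and sequenced less deeply (EQ-75%), with the same cell number for the same cDNA in all 3. No label names separate cultures, and undifferentiated H1 cells were not analysed here, so the cells of a group are parts of 1 sample. For this reason no test was run. Values are given with the SD between cells, which is not an error between cultures, and intervals on counts cover counting error only. A level that remained from the stem cell state and a level that appeared during differentiation cannot be told apart.

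GDF3 encodes a secreted ligand of the TGF-beta superfamily that is related to Nodal and to the growth and differentiation factors. Nodal-type ligands act through activin receptors and the co-receptor TDGF1 (CRIPTO), and the signal is carried to the nucleus by SMAD2 and SMAD3 with SMAD4. The pathway keeps human pluripotent cells undifferentiated and patterns the primitive streak, and in the human genome GDF3 lies close to the pluripotency genes DPPA3 and NANOG.

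GDF3 (ENSG00000184344) occupies chr12:7689784-7695775 on the minus strand of GRCh38 in the GENCODE v44 annotation. DPPA3 starts 15658 bases beyond it and NANOG 92019 bases beyond it. Printed below are the 250 bases before the RefSeq start of GDF3, chr12:7695776-7696025 (GRCh38.p14, minus strand), and those before the RefSeq start of FASTKD2, chr2:206765356-206765605 (plus strand). The first gene chose the cells and the second had the largest difference between them. GENCODE v44 starts FASTKD2 earlier, at chr2:206765357, so nearly all of the second stretch lies inside that annotated gene. Capitals mark the letters AGATAA (named GATA here) and AACAAT (named SOX here) on either strand. These motifs were chosen after the GDF3 sequence was seen.
GDF3: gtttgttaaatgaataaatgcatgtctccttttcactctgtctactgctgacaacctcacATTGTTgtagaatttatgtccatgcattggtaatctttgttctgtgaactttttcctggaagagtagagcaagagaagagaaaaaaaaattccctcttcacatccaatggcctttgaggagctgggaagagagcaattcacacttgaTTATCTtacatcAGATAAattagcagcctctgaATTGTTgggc
FASTKD2: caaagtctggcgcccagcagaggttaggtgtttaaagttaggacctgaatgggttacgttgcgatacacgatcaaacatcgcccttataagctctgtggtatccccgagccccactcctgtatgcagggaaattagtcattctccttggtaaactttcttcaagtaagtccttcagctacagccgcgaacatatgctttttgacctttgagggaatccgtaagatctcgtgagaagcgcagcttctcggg

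The GDF3 stretch held matches to GATA and to SOX and the FASTKD2 stretch held none. Among 35116 RefSeq promoters, GATA was found in 9.17% and SOX in 8.98%. The octamer ATGCAAAT was in 1.63% of promoters and the FOXH1 letters AATCCACA in 0.709%, and neither was in the GDF3 stretch. None of the 4 motifs was found in the promoters matched for 7 of the 12 leading higher genes and 11 of the 12 leading lower genes named below. A match describes the letters in this window only.

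In EQ, GDF3 stood at 700.2, 560.1, 349.7, 239, 173, 50.5 and 18.3 CPM in the cells EC 13, EC 43, EC 7, EC 26, EC 24, EC 9 and EC 25, and lists of 7 values below follow that order of cells. These values rest on 66 to 1544 counts and spanned a 38.2-fold range within the group. The values chose the cells, so they are a description. Of the low cells, 18 had no GDF3 count and 7 had 1 count. Just inside the upper threshold stood EC 25 at 18.3 CPM and just outside it EC 20 at 3.78 CPM, and at the lower threshold the nearest cells stood at 0.622 CPM (EC 2) and 1.19 CPM (EC 31). No cell lay between 3.78 and 18.3 CPM.

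The 7 cells were 18.4% of the 38 cells that passed (exact 95% binomial interval 7.74% to 34.3%) and held 99.5% of the GDF3 counts of those cells. Summed over cells, GDF3 came to 4611 counts or 283 CPM in the 7 cells (exact Poisson 95% interval 275 to 292) and to 7 counts or 0.129 CPM in the low cells (0.0519 to 0.266).

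The libraries of EQ-75% were prepared anew from the same cDNA and were not used to choose the cells, while EQ-Vary is described as differing from EQ in the pooling. In EQ-75%, GDF3 was 429.7, 495, 295, 171, 135, 35.9 and 5.29 CPM, so 6 of the 7 cells were again at 10 CPM or more and EC 25 was not. In EQ-Vary it was 679, 549, 337, 229.8, 157, 61.8 and 12.1 CPM, at 10 CPM or more in all 7. The EQ-75% value was lower than the EQ value in each of the 7 cells, at 28.8% to 88.4% of it. The cells were chosen by the EQ value, so this fall is a description.

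Low cells were near 0 in these libraries too. The low cell EC 29 had only 5954 counts in EQ-75%, failed the limits there and was left out of the EQ-75% differences. A GDF3 count was seen in 3 of the other 24 in EQ-75% and in 4 of the 25 in EQ-Vary, with highest values of 0.667 and 1.33 CPM. The 6 cells between the thresholds had no GDF3 count in EQ-75%, and 3 of them had one in EQ-Vary, up to 1.56 CPM. Their EQ values rested on 1 to 5 counts, and the median total of these cells, 747251 counts, was lower than the 2042809 of the low cells.

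GDF3 counts in TB cells give a level from another cell type, and whether they are stray reads or low expression was not tested. A GDF3 count was present in 5 of 48 passing TB cells (10.4%), never more than 2 counts, at a median depth of 1968545 counts. Among the 31 passing EC cells outside the GDF3 group it was present in 13 (41.9%), at a median depth of 2007482 counts and with at most 5 counts. The plot of GDF3 by cell shows the step between the 7 cells and the other EC cells in all 3 libraries.

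**Figure D1:**
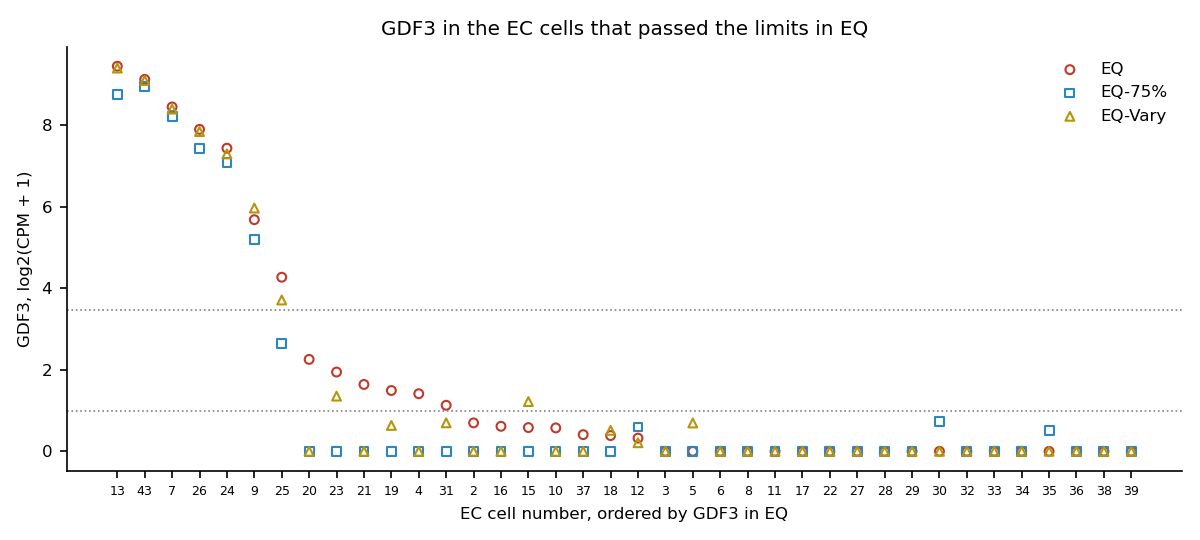
GDF3 as log2(CPM + 1) in the 38 EC cells that passed the limits, ordered by the EQ value, with 1 symbol per library of the same cDNA and dotted lines at 10 and 1 CPM. The 7 cells on the left stay above the other cells in EQ, EQ-75% and EQ-Vary, and EC 25 falls to 5.29 CPM in EQ-75%.

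Depth was alike in the groups. Totals ran from 1383349 to 3597148 counts (median 2096605) in the cells with GDF3 and from 1028642 to 3966801 in the low cells. Genes detected were 8867 ± 469 (SD, n = 7 cells) against 8799 ± 546 (n = 25), and 6821 ± 532 against 6717 ± 621 after each cell was thinned to 250000 counts. The share of counts in the 50 most abundant genes was 17.6% against 17.7%, and the share in the mitochondrial-rRNA-like MTRNR2L genes was 1.77% against 2.09%.

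One low cell stood apart. EC 15, with 1 GDF3 count, had the lowest endothelial list value of the low cells, 2.91, where a list value is the mean log2(CPM + 1) over the genes of a list in the cell, and the highest pluripotency list value, 4.15. It held NANOG at 1502 CPM, POU5F1 at 384 CPM, TFAP2C at 995 CPM and NANOS3 at 83.2 CPM, and NANOS3 was at 0 in every other low cell and in all 7 cells with GDF3. SOX2 was at 0. In EQ-75% the same cell had NANOG at 1507 CPM and TFAP2C at 1188 CPM. Thus the EC cell with the most NANOG and POU5F1 was not among the cells with GDF3, and the counts of genes, and the values it moved most among those named, are given without it as well.

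The question of the comparison was which other genes differed between cells with and without GDF3. Over 9504 genes with a count in at least 5 of the 32 cells and a mean of at least 5 CPM, 243 (2.56%) were higher and 170 (1.79%) lower by 2 or more in mean log2(CPM + 1) in the cells with GDF3. Without EC 15 the numbers were 245 and 176. Without EC 7 and EC 43 there were 379 higher genes, and without EC 9 there were 283 lower ones. Both numbers also followed the constant added before the logarithm, from 600 and 519 with 0.1 CPM to 25 and 13 with 10 CPM. The median difference of all 9504 genes was 0.077, and the 5th and 95th percentiles were -1.50 and 1.63. No gene was higher in every cell with GDF3 than in every low cell (0%), and none was lower in this way (0%).

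In EQ-75%, with the groups kept apart from EC 29, 287 genes (3.02%) were higher and 171 (1.8%) lower. Of the 413 genes past a difference of 2 in EQ, 323 were past it in the same direction in EQ-75% (203 higher and 120 lower) and 351 in EQ-Vary, and none had the opposite sign in either. EQ-75% repeats the library preparation from the same cDNA, not the cell, and EQ-Vary was pooled in other volumes, with no source here that states whether its libraries were prepared anew. Of the 243 higher genes, 39 had all 7 cells above the median of the low cells, and of the 170 lower genes 53 had all 7 below it. These genes were counted for large differences in the same cells, and the share over all genes was not counted. The 2 numbers are therefore a description.

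**Figure D2:**
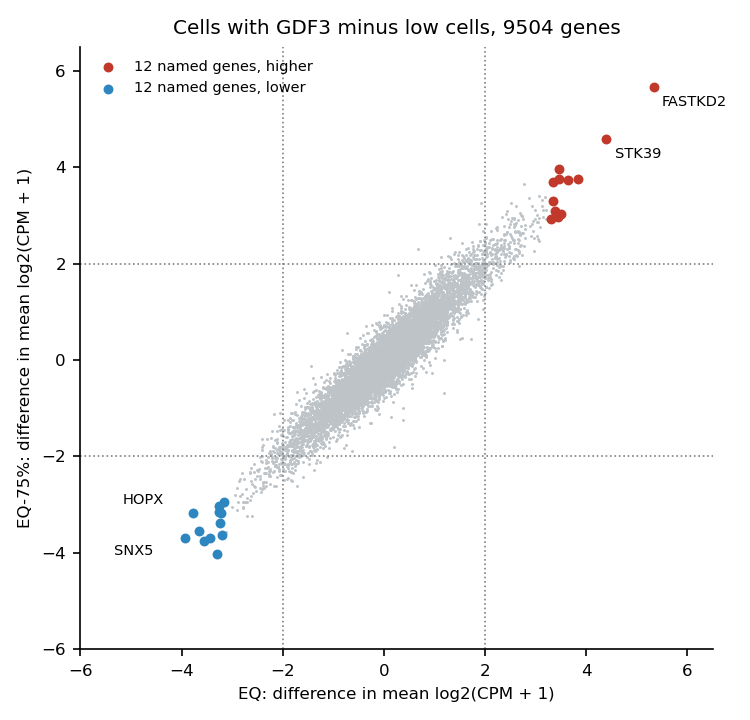
Difference in mean log2(CPM + 1) between the 7 cells with GDF3 and the low cells in EQ (x axis) and EQ-75% (y axis), 1 point per gene, with dotted lines at 2 and -2 and the 12 leading genes of each direction in colour. Every coloured point lies past 2 or -2 on both axes, and FASTKD2 is the farthest from 0. The coloured genes were picked with EQ-75% past 1 in the same direction, so their place on the y axis is a description.

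The leading genes were picked with EQ-75% past 1 in the same direction, so their EQ-75% values below are no separate check. FASTKD2, a mitochondrial RNA-binding protein of the FAST kinase domain family, had the largest difference. It stood at 212, 458, 116, 215, 319.5, 114 and 228 CPM in the cells with GDF3 and at 0 to 280.4 CPM in the low cells, with a median of 1.37. All 7 cells were far above that median, and the groups overlapped because a few low cells were as high. In the cells between the thresholds, log2(CPM + 1) of FASTKD2 ran from 0 (EC 4) to 8.47 (EC 19). EC 19 was above every cell with GDF3 except EC 43 (8.84). Mean log2(CPM + 1) was 7.74 ± 0.72 against 2.41 ± 2.66 (SD, n = 7 and 25 cells), a difference of 5.34 in EQ, 5.67 in EQ-75% and 5.35 in EQ-Vary. FASTKD2 was on average at 134 CPM in TB cells, so it is not a gene of EC cells alone. It lies at chr2:206765357-206796189.

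STK39, the kinase SPAK that phosphorylates cation-chloride cotransporters, was at 47.2, 136, 276, 134, 66.9, 0.639 and 0 CPM against 0 to 28.8 CPM in the low cells, with a median of 0. In 5 of the 7 cells it exceeded every low cell, the most of any gene included and reached by 1 gene only, while the other two cells were inside the low range. The mean of the low cells alone was below the limit of 5 CPM. STK39 was thus included through the cells with GDF3, and its rank among the genes is a description. The difference was 4.40, and 4.58 in EQ-75%. TB cells held it at a mean of 0.419 CPM.

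HAS2, the enzyme that makes the matrix polymer hyaluronan, stood at 973, 56.9, 1652, 83.9, 299, 28.8 and 211 CPM against 0 to 423 CPM in the low cells, with a median of 21.8. EC 13 and EC 7 were above every low cell and the others were within the low range. The 6 cells between the thresholds ran from 2.9 to 5469 CPM, and the highest of them, EC 21, was above every cell with GDF3. The difference was 3.46, and 3.96 in EQ-75%.

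GRAMD1B, a cholesterol transporter of the endoplasmic reticulum, was at 465, 75.4, 0.629, 431, 58.1, 194 and 239 CPM against 0 to 342 CPM in the low cells, with a median of 2.33, so EC 7 alone was low in the group. SRP68, a subunit of the signal recognition particle, was likewise low in EC 7, at 144, 47.2, 1.26, 115, 89.8, 80.6 and 249.9 CPM against 0 to 349 CPM in the low cells, with a median of 1.6. Their differences were 3.83 and 3.51. In both genes the other 6 cells lay above the low median, and for GRAMD1B both EC 13 and EC 26 were above every low cell.

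Most of the other leading higher genes were high in some of the 7 cells and near 0 in others. GCNT4, a glycosyltransferase of O-linked glycans, was at 0, 295, 106, 278, 31.3, 255 and 0 CPM, and MTERF1, a mitochondrial transcription terminator, at 3.34, 2.18, 219.5, 0.723, 109, 43.5 and 78.4 CPM. Low medians were 0.489 and 0.252 CPM. ENDOD1 differed by 3.64, EIF2B5, a subunit of a translation initiation factor, by 3.44, C12orf10 by 3.39, MTO1, which modifies mitochondrial tRNAs, by 3.35, and the nuclear receptor coactivator NCOA6 by 3.30. High single values were present among the low cells for these genes too.

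SNX5, a sorting nexin of endosomes, led the lower genes. It stood at 1.43, 2.54, 1.26, 0.723, 3.35, 54.98 and 0.278 CPM in the cells with GDF3 and at 0 to 475 CPM in the low cells, with a median of 54.7. Only EC 9 among the 7 cells reached the low median. The difference was -3.93 in EQ and -3.69 in EQ-75%.

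HOPX, an unusual homeodomain protein that does not bind DNA, was at 1.91, 0, 0, 145, 0.913, 30.7 and 0 CPM against 0 to 1317 CPM in the low cells, with a median of 125, a difference of -3.77. The enzyme INPP1, which removes a phosphate from inositol phosphates, was at 0, 0, 1.89, 1.45, 0.913, 27.5 and 0.834 CPM against 0 to 664 CPM in the low cells, with a median of 24.3, a difference of -3.66. In each of them most of the 7 cells were at or near 0, and low cells at 0 or near it were present too. The ubiquitin ligase UBE4B differed by -3.56, the fatty acid oxidation enzyme ECHS1 by -3.44, the phosphatase subunit PPP1CC by -3.30, the antiproliferative gene BTG2 by -3.26 and TALDO1 of the pentose phosphate pathway by -3.25. ISOC1, PARP4, the quinone oxidoreductase CRYZ and the histone acetyltransferase HAT1 differed by -3.24, -3.23, -3.19 and -3.16. For INPP1, UBE4B, PPP1CC, ISOC1 and PARP4 the mean of the cells with GDF3 was below the limit of 5 CPM. They were thus included through the low cells, and their rank among the genes is a description.

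**Figure D3:**
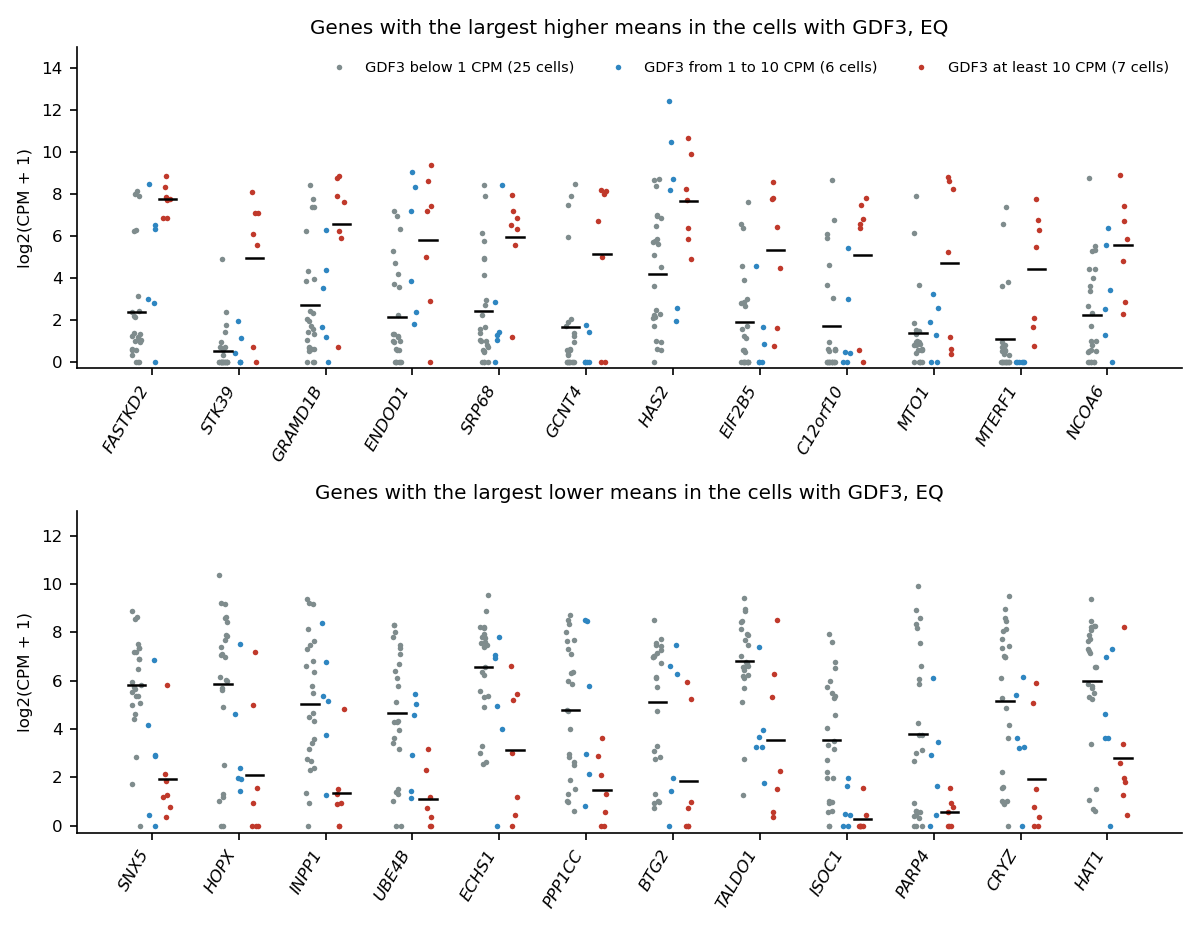
log2(CPM + 1) in EQ of the 12 leading higher genes (top) and the 12 leading lower genes (bottom), 1 point per EC cell, with black bars at the means of the 25 low cells and the 7 cells with GDF3. FASTKD2 is high in all 7 cells with GDF3, STK39 in 5 of them, and for every gene drawn the groups overlap.

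Over all 38 passing cells, GDF3 and REPS2 had the highest Spearman rank correlation (0.65), followed by FASTKD2 (0.60), C16orf58 (0.59), PKNOX1 (0.55) and SORD (0.54). The lowest were ISOC1 (-0.55), ZBTB4 (-0.53), C4orf3 (-0.52), TM4SF18 (-0.52) and GOLGA8EP (-0.52). In 18 of the 38 cells GDF3 was at 0 and so tied, and every value of a cell shares that cell's library and depth, so these are descriptions.

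The pluripotency genes other than GDF3 are known from the same undifferentiated cells. Of 25 listed genes other than GDF3, 23 were measured and 15 were included, of which 0 were higher and 0 lower by 2, beside 2.56% and 1.79% over all genes, shares at which 0 of 15 is near the level of all genes. Their median difference was 0.21, from -0.59 to 0.98. The list value was 2.78 ± 0.53 against 2.69 ± 0.51, a difference of 0.092 that is smaller than either SD and was 0.15 without EC 15. Its sign was not stable, since it was -0.065 without EC 24 and -0.0070 in EQ-75%. The shares of 2.56% and 1.79% over all genes apply to every list below. A list with 0 members past 2 is likewise near the level of all genes.

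NANOG, a core pluripotency factor and a neighbour of GDF3, was at 57.2, 47.9, 68.6, 39.8, 39.3, 26.2 and 30.02 CPM against 13.6 to 1502 CPM in the low cells, with a median of 30.6. POU5F1 (OCT4) was at 34.8, 15.96, 20.1, 7.23, 28.9, 10.2 and 13.3 CPM against 1.07 to 384 CPM in the low cells, with a median of 12.05. All 7 cells lay inside the low range for both genes. Both genes have near-identical copies elsewhere in the genome, none of their values in passing EC cells was a whole number, and TB cells held NANOG at a mean of 33.99 CPM, so reads shared with copies cannot be told apart from their own. SOX2 and FOXD3, with POU5F1 and NANOG among the defining factors of pluripotent cells, had 0 counts in all 38 cells, which allows a share of up to 7.89% of cells with a count, and 0 counts over the 7 cells allow up to 0.184 CPM.

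The largest member differences were 0.98 for the zinc finger factor SALL4, 0.74 for the surface protein THY1 and 0.66 for the DNA methyltransferase DNMT3B. DPPA4 differed by -0.59. LIN28A, an RNA-binding protein, differed by -0.31, LIN28B by 0.56, TERF1 by 0.26, L1TD1 by -0.10, PRDM14 by -0.45, PODXL by 0.19 and SEPHS1 by 0.29. Naive pluripotency genes had 3 of 10 members included, none past 2, with a median of 0.27. KLF2 differed by 0.60. KLF4 was not included, with no count in the 7 cells and a level of 94.1 CPM in EC 15 against 0 in every other low cell. L1TD1 differed by 0.14 and PRDM14 by -0.21 without EC 15. When 1 of the 7 cells was left out, 7 of the 15 included pluripotency genes changed sign, DNMT3B among them (-0.18 to 1.32), and SALL4 ran from 0.49 to 1.68.

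The neighbours of GDF3 in chromosome band 12p13 were examined next. Of 12 listed neighbours 7 were included, none was past 2 and the median was 0.14. DPPA3 was at 0, 0, 0, 10.1, 0, 0.639 and 0 CPM against 0 to 124 CPM in the low cells, with a median of 0.252, a difference of -0.40. The glucose transporter SLC2A3 differed by 0.016, its near-copy SLC2A14 by 1.01, NECAP1 by 0.94 (1.27 without EC 15) and FOXJ2 by 0.85.

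The Nodal and activin pathway, to which GDF3 belongs, was described by role. NODAL and INHBB had 0 counts in all 38 cells, and GDF11, the 1 included ligand of 10, differed by 0.20. The GDF11 difference changed sign when 1 of the 7 cells was left out (-0.41 to 0.51). Receptor levels overlapped between the groups, as did those of every gene included. TGFBR1, a type I TGF-beta receptor, was at 124, 501, 474, 540.0, 279, 173 and 1108 CPM against 2.14 to 2039.9 CPM in the low cells, with a median of 348. All 6 included receptors and co-receptors had positive differences and none was past 2, with a median of 0.45. The median of all genes was also above 0, at 0.077, and the share of all genes with a positive difference was not counted. The activin type II receptor ACVR2A differed by 1.29, ACVR2B by 0.61, the activin type I receptor ACVR1B by 0.30, TGFBR1 by 1.01, TGFBR2 by 0.14 and the co-receptor TDGF1, which has near-identical copies, by 0.25. When 1 of the 7 cells was left out, 2 of the 6 changed sign, ACVR1B (-0.47 to 0.56) and TGFBR2 (-0.50 to 0.81), and ACVR2A ran from 0.69 to 2.15. ACVR1B was at 0.477, 0, 0.629, 0, 73.6, 9.59 and 0 CPM and at a median of 0 CPM in the low cells, and ACVR1C, CFC1 and CFC1B were at 0 in all 38 cells.

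None of the 3 included inhibitors and none of the 3 included transducers was past 2, beside 2.56% higher and 1.79% lower over all genes. For so few genes, 0 is near these shares. Of the inhibitors, the pseudo-receptor BAMBI was at 0, 127, 1.26, 0, 65.1, 0 and 0 CPM against 0 to 111 CPM in the low cells, with a median of 0, a difference of 1.41 that came from a minority of cells, while the ligand trap FST differed by -0.99 and SMAD7 by 0.34. The antagonist CER1 was at 0 in all 38 cells. SMAD2 differed by 0.40, DRAP1 by 0.48 and TRIM33 by -0.44. When 1 of the 7 cells was left out, SMAD7 (-0.45 to 0.55), DRAP1 (-0.10 to 0.95) and TRIM33 (-1.06 to 0.08) changed sign. BAMBI, FST and SMAD2 did not. BMP signalling genes had 16 of 21 included, none past 2, and a median of 0.58, with a range of -1.70 to 1.39.

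LHX1, a homeodomain factor of the primitive streak and its derivatives, was the 1 of 3 included streak genes higher by 2, beside 2.56% of all genes. It stood at 196, 87.8, 148, 116, 76.99, 14.1 and 26.97 CPM against 0 to 391 CPM in the low cells, with a median of 8.71, a difference of 2.65, 2.68 in EQ-75% and 2.57 without EC 15. All 7 cells were above the low median and none was above the highest low cell. The list held 16 measured genes. The streak genes T, MIXL1, EOMES, GSC and MESP2 were at 0 in all 38 cells, while APLNR differed by 0.75 and WNT3 by 0.10.

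**Figure D4:**
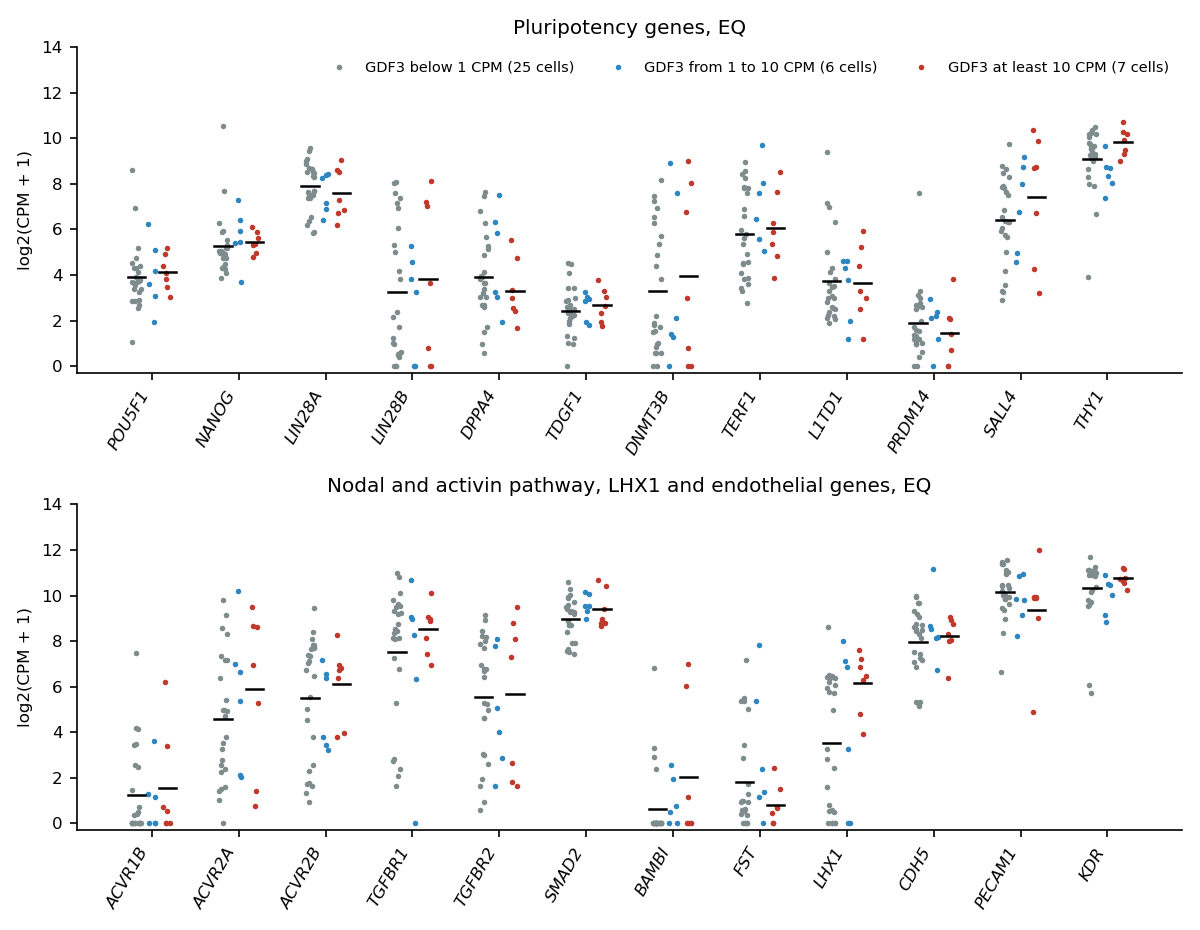
log2(CPM + 1) in EQ of 12 pluripotency genes (top) and of Nodal and activin pathway genes, LHX1 and endothelial genes (bottom), 1 point per EC cell, with black bars at the means of the 25 low cells and the 7 cells with GDF3. The points of the 7 cells lie among those of the low cells for POU5F1 and NANOG, and for LHX1 they lie in the upper part of the low range.

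The label of these cells as endothelial was checked against its markers. CDH5 (VE-cadherin), which joins endothelial cells, was at 321, 256, 83.7, 434, 264, 528 and 492 CPM against 34.4 to 1013 CPM in the low cells, with a median of 342, and the VEGF receptor KDR at 2366, 1198, 1753, 2284, 1589, 1492 and 1692 CPM against 51.3 to 3318 CPM in the low cells, with a median of 1937. PECAM1 was at 961, 28.7, 971, 967, 520.1, 942 and 4032 CPM against 99.6 to 3017 CPM in the low cells, with a median of 1162. Every cell with GDF3 thus held CDH5, KDR and PECAM1, and EC 43 had less PECAM1 than any low cell.

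Of 29 measured endothelial genes 25 were included, of which 0 were higher and 1, CD93, was lower by 2, beside 2.56% and 1.79% over all genes, so a single gene is near the share of all genes. CD93 was at 29.6, 1.45, 106, 21.7, 16.7, 440.5 and 5.56 CPM against 1.31 to 2115 CPM in the low cells, with a median of 208, a difference of -2.27. VWF differed by 1.76, TAL1 by -1.83, CD34 by -0.63 and FLT1 by -1.17. The list value was 5.47 ± 0.59 against 5.73 ± 0.71, a difference of -0.26 that is smaller than either SD. It was -0.38 without EC 15, and 0.027 without EC 7 and EC 43, the cells with GDF3 of lowest list value, so its sign rests on those cells.

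Markers of other cell types were counted in the same way. Definitive endoderm had 6 included genes of 15, all with negative differences and none past 2 (median -0.90), although endothelial cells also express several of them, with CXCR4 at -1.77 and SOX17 at -1.45. The share of all genes with a negative difference was not counted. Mesenchymal and mural genes had 10 of 15 included and a median of 0.054. The smooth muscle actin ACTA2 was the 1 member past 2, at 2.21 (2.56% of all genes were higher), with 28.6, 0.363, 352, 11.6, 40.8, 28.1 and 0 CPM against 0 to 83.3 CPM in the low cells, with a median of 0. Genes of the epithelial-mesenchymal transition had 5 of 7 included, none past 2 (median -0.61), and fibronectin FN1 differed by 1.80, with 3 of the 7 cells above every low cell.

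Primordial germ cell genes had 6 of 11 included, none past 2 (median -0.25). KIT, the stem cell factor receptor, differed by 1.81 and TFAP2C by 0.21, or 0.57 without EC 15. The list difference was -0.072 and, without EC 15, 0.056, so its sign turned on that cell. Haemogenic and blood genes (4 of 11 included, median 0.27), cardiac mesoderm (3 of 9, median 0.085), trophoblast and amnion (3 of 14, median 0.14), neuroectoderm (2 of 10, median 0.50) and epithelial genes (5 of 13, median -0.043) had no member past 2.

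Cell cycle genes varied within both groups. EC 7 had a G2/M list value of 7.36, and the other 6 cells with GDF3 had values from 0.54 to 2.56. Low cells ran from 1.06 to 8.77. None of the 23 included G2/M genes was past 2 (median -0.33). Of 14 included S phase genes 2 were lower by 2, beside 1.79% of all genes. They were RRM1 (-2.24) and TYMS (-2.06, or -1.88 without EC 15), enzymes of deoxynucleotide supply. The list median was -0.22, and the list difference of -0.084 was 0.035 without EC 15. Immediate early and stress genes (13 of 16 included) had a median of -0.22 and mitochondrial-rRNA-like genes (6 of 8) one of -0.23, with no member past 2. The part of cell cycle, stress or MTRNR2L levels in the leading genes was not tested beyond the alternatives given at the end.

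**Figure D5:**
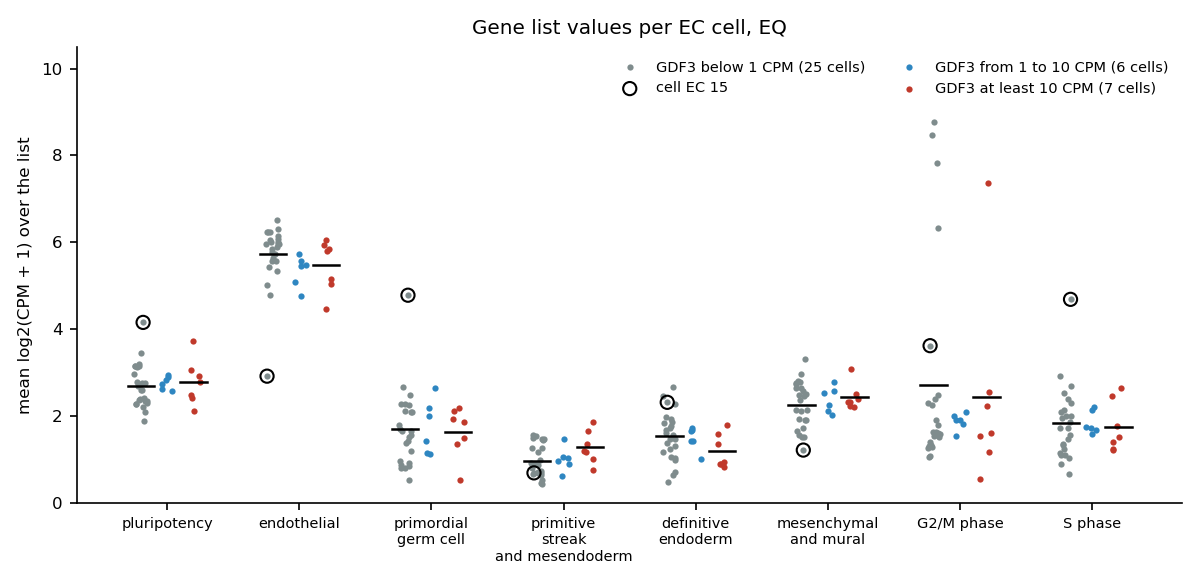
Mean log2(CPM + 1) over 8 gene lists in EQ, 1 point per EC cell, with black bars at the means of the 25 low cells and the 7 cells with GDF3, and EC 15 circled. The groups overlap for every list drawn, and EC 15 has the lowest endothelial and the highest pluripotency value of the low cells.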

How the data were processed

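The deposited values were expected counts of 17492 protein-coding genes per single-cell library. Per the study's methods, the authors trimmed reads to 51 bases, mapped them with Bowtie 1.2.3 to GRCh38 Ensembl protein-coding genes with up to 2 mismatches and estimated the expected counts with RSEM 1.2.31. The submitters' processing notes also name CASAVA 1.8.2. RSEM splits reads shared by similar genes, and 62.7% of the nonzero values of EC cells in EQ were not whole numbers.

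Expected counts were rounded and divided by each cell's sum to give CPM. Cells were grouped by GDF3 from the EQ values, and each gene's difference was the mean log2(CPM + 1) of the cells with GDF3 minus that of the low cells. Genes needed a count in at least 5 of the cells of both groups and a mean of 5 CPM, and GDF3 was left out. A difference of 2 counted a gene as higher or lower. No test was run, since the labels name no separate cultures and cells are not replicates. Named genes were the 12 largest differences in each direction that were detected in at least 50% of the cells of the higher group and past 1 in EQ-75%, the included pluripotency, Nodal and activin genes, up to 4 abundant genes of each other list and the 5 highest and 5 lowest rank correlations with GDF3. A few further list members were named after their values were seen. The values of 1 pluripotency gene are not reported here. The members, the gene lists and the comparison were chosen with earlier results of these data known.

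Doublets were not called here, and the only filters applied here were those on total counts and on the top 50 genes. The paper states that cells were removed in its initial unequalized experiment if they had few genes, or if images showed doublets or apparently dead cells. The calculation was tested on simulated data. Alternatives were the pseudocount, TMM size factors (edgeR 4.0.16 in R 4.3.3), the filter on low values, the median, summed counts, other GDF3 thresholds, no limits on cells, thinning, unrounded counts, the other libraries, cell cycle and leaving out cells. Calculations ran in Python 3.11.15 with pandas 2.3.3 on numpy 2.4.6, intervals came from scipy 1.17.1, and plots from matplotlib 3.10.9. Gene positions came from GENCODE v44 and promoter sequences from RefSeq (GRCh38.p14).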

Additional observations from a re-analysis of the deposited data

Results flagged for a closer look

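Among 50 measures tried over the 7 cells with GDF3, 10 had 1 cell whose gap to the nearest other cell, relative to the whole range, was above Dixon's 95% critical value of 0.568. For normally distributed values chance gives this in about 1 in 20 groups. The values here hold many zeros, and the leading genes were chosen by their levels in these same cells. The count of 10 can therefore not be set against that rate. Values of genes and lists are log2(CPM + 1) or its mean.

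EC 7 was low for 2 of the leading higher genes, at 0.70 for GRAMD1B where the other cells ran from 5.89 to 8.86, and at 1.18 for SRP68 where they ran from 5.59 to 7.97. The same cell was high for the G2/M list, at 7.36 against at most 2.56 in the others. EC 9, with the second lowest GDF3 of the group, was above the other cells for 4 of the leading lower genes. It stood at 5.81 for SNX5, where the others reached 2.12, and at 4.83 for INPP1, where they reached 1.53. For HAT1 it stood at 8.20, where they reached 3.38. For ISOC1 it stood at 1.54, where they reached 0.45, so all cells of the group were near 0 for that gene. EC 24 was high for the Nodal and activin transducers, at 5.25 against at most 3.65, for the mesenchymal and mural list, at 3.08 against at most 2.50, and for genes detected, at 9868 against at most 9013. After thinning to 250000 counts EC 24 had 7542 genes detected and the next cell, EC 9, had 7437, so it no longer stood apart in that measure. For the 2 lists the part of depth was not tested.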

How the results depend on the processing

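No paired analysis was possible because the groups are different cells of 1 sample and the results come from no test. Over 26 alternatives, 597 of the 624 differences of the 24 leading genes were past 2 and none had the other sign, but these genes were chosen for large differences, so this is no sign of stability. The filters on low values cannot move a gene's difference, and the threshold of 50 CPM is the same as leaving out EC 25. The counts of genes moved: beside 243 higher, 170 lower and 323 repeated in EQ-75%, a pseudocount of 0.1 CPM gave 600, 519 and 805, one of 10 CPM gave 25, 13 and 22, medians gave 678, 495 and 932, ratios of summed counts gave 452, 1196 and 1437, and 13 cells at 1 CPM or more against those below gave 60, 69 and 98. Without the cells of highest G2/M list value (5 against 17 cells) 471 genes were higher and 542 of all counted genes repeated. The cells left out there include EC 7, EC 43 and EC 15, so that setting overlaps the last 2 settings below. Leaving out 1 of the 7 cells at a time gave 273 to 351 higher, 169 to 283 lower (283 without EC 9) and 348 to 456 repeated, list differences of -0.07 to 0.20 for pluripotency, whose sign thus turned, as it did with summed counts (-0.20), and -0.36 to -0.09 for endothelial genes. The last 2 settings were chosen after seeing the data. Without EC 15 no count moved by over 1.5 times. Without EC 7 and EC 43, 379 genes were higher, and the endothelial difference changed sign from -0.26 to 0.027. The median of all genes shifted between -0.12 and 0.15 across alternatives. The cause of these moves was not tested. Gene counts of single cells at these depths hold many zeros, and the group has 7 cells.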
